A study of Mus musculus with 3 samples.

Results

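Galanin, the enkephalins, cholecystokinin, neuromedin B and C-type natriuretic peptide are small signalling peptides, and their precursor genes Gal, Penk, Cck, Nmb and Nppc were followed here in dissociated mouse pituitaries. These 5 genes, of 55293 gene symbols in the deposited count table, were picked by name as peptide genes with a restricted pattern over cell clusters. The choice rested on the counts per 1000000 counts (CPM) and the shares of cells with a count described here. Their levels and the differences between genotypes are therefore a description and carry no test.

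Single-cell RNA sequencing covered pituitaries of TpitKO, TpitHT and TpitWT mice, written KO, HT and WT, with 1 library for each genotype. Tbx19 encodes Tpit, a T-box transcription factor needed for the terminal differentiation of the pituitary cells that express Pomc, the precursor gene of corticotropin and melanotropin. The labels do not spell out HT, and give neither the construction of the allele, nor age, sex and strain, nor the number of animals behind a library. Dead cells had been removed by sorting with propidium iodide, and the libraries were made with Chromium 3′ v3 reagents.

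The KO library held 13413 cells, the HT library 12839 and the WT library 11222, with means of 9935, 11869 and 9561 counts per cell in KO, HT and WT. Tbx19 stood at 0.690 CPM in KO, 12.4 CPM in HT and 17.6 CPM in WT. From 36 to 40 cell barcodes were shared between any pair of libraries, under 1% of the cells of each. The authors' 21 clusters were named from marker lists as corticotrope-like (6), gonadotrope-like (3), lactotrope-like (0 and 4, prolactin cells), melanotrope-like (7), somatotrope-like (1, 2 and 5, growth hormone cells), thyrotrope-like (14), stem-cell-like (10), cycling (20), pituicyte-like (18), fibroblast-like (15), endothelial-like (9) and macrophage-like (8 and 19). Clusters 11, 12, 13, 16 and 17 kept their numbers, because their leading genes did not settle on 1 marker list. Cluster 10 was named from all 6 stem cell markers, none of them among its 10 leading genes. No KO cell lay in cluster 6 or 7. Cluster 2 held 17 KO, 2092 HT and 2081 WT cells, and cluster 5 held 2457 KO, 24 HT and 28 WT cells. Of the 61 combinations of genotype and cluster, 47 had at least 50 cells. The 5 genes are themselves among the genes that set the clusters apart: Gal, Penk, Nmb, Cck and Nppc were among the 10 leading genes of clusters 0, 2, 6, 11 and 13 in that order.

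Every interval given is a 95% interval for counting error, exact Poisson for CPM, exact Clopper-Pearson for shares of cells and exact conditional binomial for ratios. Such intervals leave out the variation between cells, animals and libraries. Counts from 1 cell are not independent of each other, which makes the intervals narrower than the true error. A gene was called lower or higher where the log2 ratio of CPM, after adding 10 CPM to both values, was at least 1 in size, which is a 2-fold difference. Counting was at the 3′ end, so a level was compared between cells or genotypes for 1 gene and never between genes.

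As background, neuropeptides are made as longer precursors in the regulated secretory pathway, cut at basic residues by prohormone convertases, trimmed by a carboxypeptidase and in many cases amidated at the carboxy end. In the pituitary they are held to act locally, on the cell that releases them or on its neighbours, beside the classical hormones. Galanin made by lactotropes is known as an oestrogen-induced growth factor of these cells, enkephalins act at opioid receptors, cholecystokinin and neuromedin B at their own G protein-coupled receptors, and C-type natriuretic peptide at the guanylyl cyclase Npr2.

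All 5 genes are protein coding and lie on the minus strand of GRCm38. Gal (ENSMUSG00000024907) is at chr19:3409915-3414544, Penk (ENSMUSG00000045573) at chr4:4133531-4138819, Cck (ENSMUSG00000032532) at chr9:121489824-121495694, Nmb (ENSMUSG00000025723) at chr7:80902227-80905076 and Nppc (ENSMUSG00000026241) at chr1:86666291-86670571. The stretches of coding sequence below, read from the GENCODE M21 annotation on that build, are shown because they encode the bioactive peptide of each precursor. Capitals mark the codons of the peptide, and lower case marks the flanking codons for basic cleavage residues, for the glycine that gives the amide, or for the stop. The Gal stretch joins exons 3 and 4 between chr19:3411592-3413340 and holds the 29 codons of galanin. The Penk stretches lie in exon 2, with a tandem pair of Met-enkephalin copies at chr4:4134307-4134354 and the single Leu-enkephalin copy at chr4:4133935-4133961. The Cck stretch in exon 3, chr9:121490098-121490133, holds the last 8 codons of cholecystokinin. The Nmb stretch joins exons 1 and 2 between chr7:80904287-80904842 and holds the 10 codons of neuromedin B. The Nppc stretch in exon 2, chr1:86669664-86669738, holds the 22 codons of C-type natriuretic peptide and ends in the stop codon.
Gal: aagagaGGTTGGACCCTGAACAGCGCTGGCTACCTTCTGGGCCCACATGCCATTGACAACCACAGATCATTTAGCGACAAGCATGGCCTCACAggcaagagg
Penk, tandem Met-enkephalin copies: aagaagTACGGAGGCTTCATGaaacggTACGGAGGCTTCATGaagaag
Penk, Leu-enkephalin copy: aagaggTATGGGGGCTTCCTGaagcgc
Cck: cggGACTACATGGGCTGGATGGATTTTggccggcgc
Nmb: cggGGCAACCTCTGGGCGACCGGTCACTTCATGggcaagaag
Nppc: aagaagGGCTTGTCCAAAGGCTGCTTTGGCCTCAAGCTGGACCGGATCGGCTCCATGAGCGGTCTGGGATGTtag
The reading frame of Penk has 268 codons and 7 enkephalin copies that follow a pair of basic codons. Of these, 6 have the sequence of Met-enkephalin and 1 that of Leu-enkephalin, so that 1 precursor yields several opioid peptides. The codons after a copy were not part of this count, so the 6 can include longer peptides that begin with Met-enkephalin.

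Over all cells of a library, Gal stood at 75.7 CPM in KO, 184 CPM in HT and 211 CPM in WT. Penk was at 0.458 CPM in KO, 13.1 CPM in HT and 14.6 CPM in WT. Cck was at 0.420 CPM in KO, 4.52 CPM in HT and 0.755 CPM in WT. The level of Gal was lowest in KO, that of Penk was close to 0 in KO alone, and that of Cck was highest in HT. Nmb was at 4.80 CPM in KO, 13.7 CPM in HT and 16.8 CPM in WT. Nppc was at 6.12 CPM in KO, 7.88 CPM in HT and 7.90 CPM in WT, the narrowest range of the 5 genes. Over whole libraries, fewer cells of a type and less RNA per cell cannot be told apart, and both are given below.

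Of the 5 genes, Gal and Penk were lower in KO than in WT by 2-fold or more over all cells, at log2 ratios of -1.37 and -1.23. As plain ratios of CPM, KO was 2.79-fold lower for Gal (2.73 to 2.86), 31.9-fold lower for Penk (24.7 to 41.9) and 3.51-fold lower for Nmb (3.21 to 3.85). The call of Penk was lost with the authors' scaled counts, at -0.80, and Nmb gained it with a pseudocount of 1 CPM, at -1.62, and with totals without hormone and mitochondrial genes, at -1.09. Of the 21791 genes with at least 50 counts in both libraries together, 0.115% were lower by as much, and 0.165% were higher. The log2 ratio was -0.86 for Nmb, -0.15 for Nppc and -0.046 for Cck. The median over the 5 genes was -0.86, against 0.02 over all genes. Against HT the same Gal and Penk were lower in KO by 2-fold or more, at -1.18 and -1.14, where 0.081% of 22214 genes were lower and 0.0765% higher. None of the 5 passed 2-fold between HT and WT, where 0.0324% of genes were lower in HT and 0.0139% higher. The 3 contrasts share libraries, and the genes were chosen with these ratios known, so nothing is read from these counts.

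**Figure D1:**
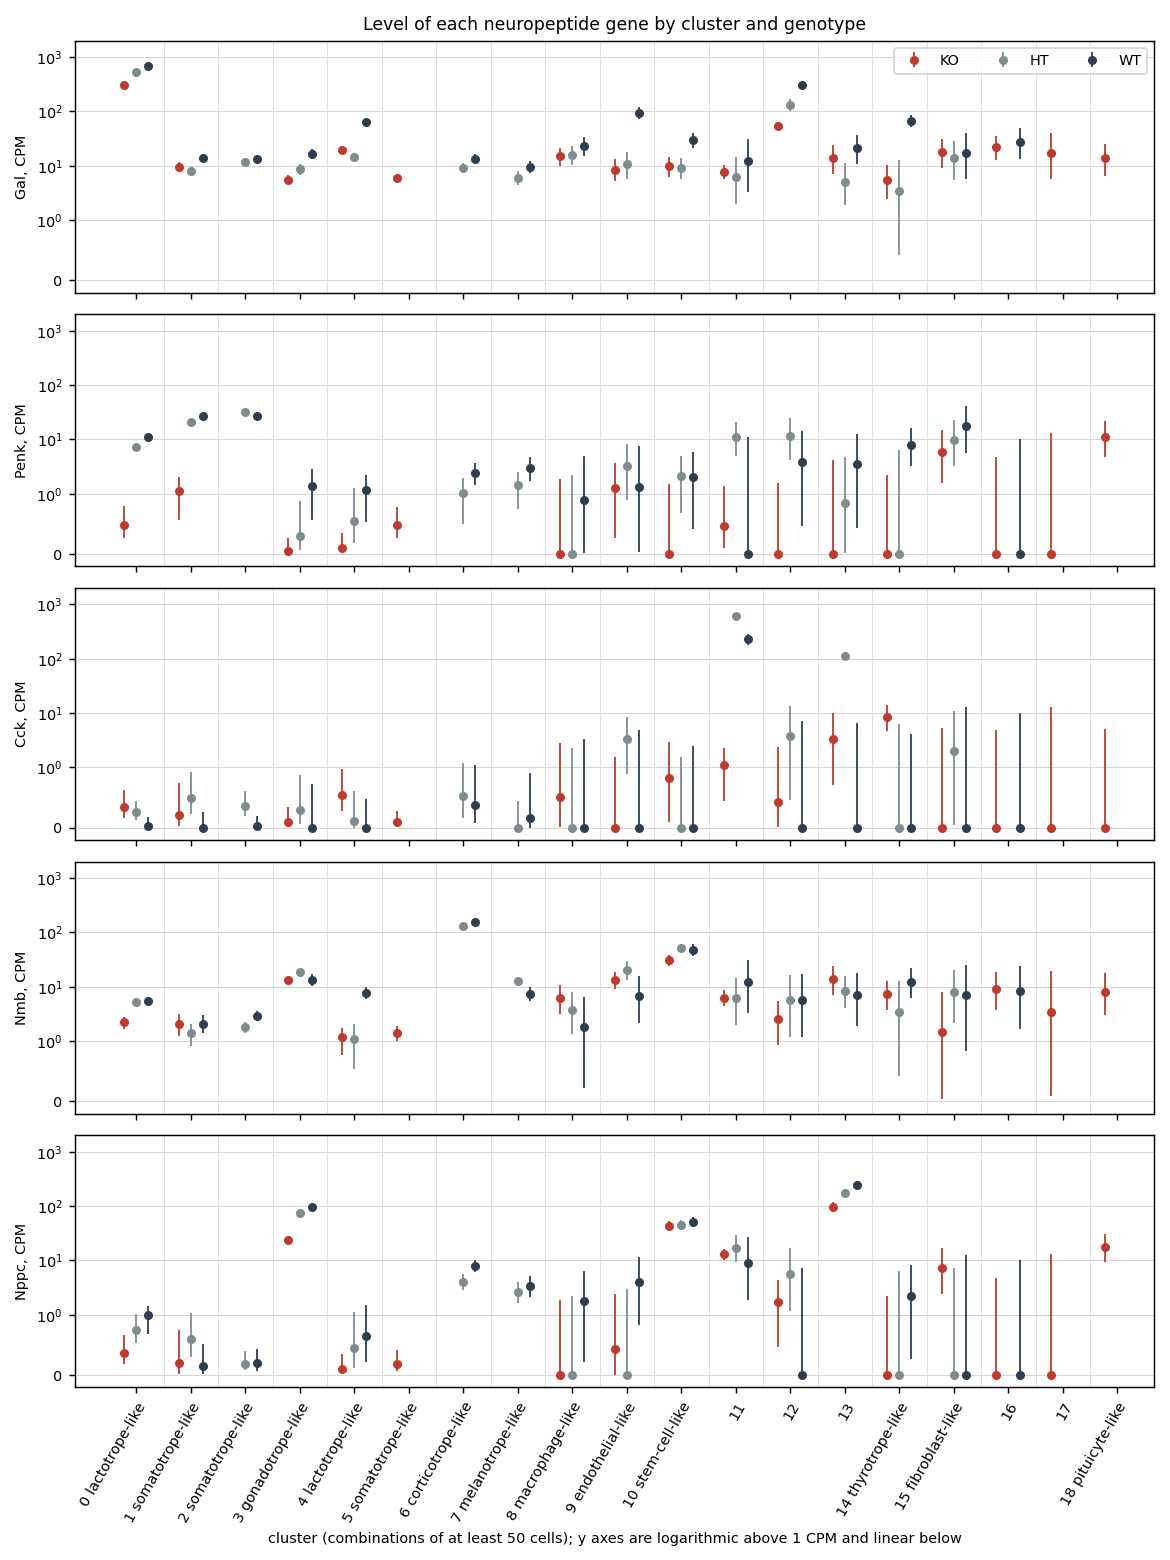
Level of each gene (CPM, axis logarithmic above 1 CPM and linear below) in every cluster with at least 50 cells, for KO (red), HT (grey) and WT (dark blue), with 95% Poisson intervals. The clusters of highest level in HT and WT were cluster 0 and then 12 for Gal, clusters 1 and 2 for Penk, cluster 11 for Cck (with cluster 13 next in HT), cluster 6 and then 10 for Nmb, and cluster 13 and then 3 for Nppc.

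Gal counts came almost wholly from cluster 0, lactotrope-like cells rich in Gal. That cluster held 89.0% of the Gal counts of the KO library, 96.1% of those of the HT library and 92.3% of those of the WT library. In cluster 0 the level was 305 CPM in KO (299 to 312), 532 CPM in HT (526 to 538) and 699 CPM in WT (690 to 709). The 3 intervals did not overlap, and KO was 2.29-fold lower than WT (2.24 to 2.35) and 1.74-fold lower than HT (1.70 to 1.78). HT was 1.31-fold lower than WT (1.29 to 1.34). In that cluster Gal and Penk were the members past 2-fold lower in KO against WT, where 0.0699% of 15738 genes were.

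The share of cluster 0 cells with a Gal count differed less between genotypes than the level did. It was 51.1% in KO (1612 of 3156 cells), 55.6% in HT (2457 of 4416) and 59.1% in WT (1963 of 3321). A cell with a count had on average 5.57 Gal counts in KO, 10.99 in HT and 10.7 in WT. The share was thus 1.16-fold lower in KO cells than in WT cells (1.08 to 1.24), while counts per positive cell were 1.91-fold lower. Mean depth in the cluster was 9319 counts per cell in KO, 11496 in HT and 9013 in WT, so the KO cells were not shallower than the WT cells. Endothelial-like cells of cluster 9, which should lack Gal, held a count in 2.54% of KO cells, 3.56% of HT cells and 7.25% of WT cells, at mean depths of 4250, 4343 and 3610 counts per cell in KO, HT and WT.

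Outside cluster 0, the order of clusters by Gal level depended on the library. Cluster 12, whose leading genes are haemoglobins and Prl, ranked next in all 3 libraries, with 53.7 CPM in KO, 133 CPM in HT and 300.2 CPM in WT. Gal there was found in 53 of 422 KO cells, 18 of 83 HT cells and 24 of 86 WT cells. Cluster 4, the other lactotrope-like cluster, had 19.3 CPM in KO, 14.3 CPM in HT and 63.2 CPM in WT. Its WT level thus stood apart from both other libraries, and KO was 3.27-fold lower than WT (2.86 to 3.75) but 1.35-fold higher than HT (1.10 to 1.66). Clusters 0 and 12 each stood clear of the next cluster in all 3 libraries, while the intervals of the clusters at ranks 3 and 4 overlapped in each library.

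Gal counts were also found in cells that should lack the gene, where free RNA in droplets can give counts. Endothelial-like cluster 9 had 8.53 CPM of Gal in KO, 10.65 CPM in HT and 93.7 CPM in WT. The WT value came from 70 counts in 15 of 207 cells, and it equalled 44.3% of the whole-library level of Gal. In the same WT cells Prl stood at 46.3% and Gh at 38.8% of their library levels. Thyrotrope-like cluster 14 had 5.45 CPM in KO, 3.48 CPM in HT and 67.7 CPM in WT, the last from 60 counts in 13 of 91 cells. Stem-cell-like cluster 10 had 9.86 CPM in KO, 9.16 CPM in HT and 29.8 CPM in WT. A WT cell with a count held on average 4.67 Gal counts in cluster 9, 4.62 in cluster 14 and 3.67 in cluster 10. In that order of clusters, the values were 1.43, 1.29 and 1.20 in KO and 1.30, 1 and 1.38 in HT. The WT excess there thus lay partly in counts per positive cell, and its source was not tested. Macrophage-like cluster 8 had 14.97 CPM in KO, 15.9 CPM in HT and 23.3 CPM in WT.

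Across the 13 clusters with at least 50 KO and 50 WT cells, Gal was lower in KO in 12, fibroblast-like cluster 15 being the exception. Beside cluster 0 it was past 2-fold in clusters 4, 9, 10, 12 and 14, where 0.0485%, 0.967%, 0.178%, 0.93% and 0.751% of genes were lower by as much, in that order of clusters. HT was below WT in all 15 clusters compared. It was past 2-fold in the same clusters 4, 9, 10, 12 and 14, where 0.0374%, 0.987%, 0.102%, 1.62% and 0.761% of genes were, and in cluster 13 on fewer than 50 counts. The part of free RNA in the ratios outside cluster 0 was not tested. A level at or below that of the endothelial-like cells is not read as expression, which in WT covers clusters 4, 10 and 14. That WT level, 93.7 CPM, was above 23.3 CPM in macrophage-like and 17.4 CPM in fibroblast-like cells of WT. In WT the intervals of clusters 4 (57.7 to 69.1) and 14 (51.7 to 87.1) lay above those of both. The reading of clusters 4 and 14 in WT thus depends on the cells taken as background. In KO the levels of clusters 1, 3, 5, 11 and 14 were between 5.45 and 9.65 CPM, next to 8.53 CPM in the endothelial-like cells.

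Over the lactotrope-like class, clusters 0 and 4 together, Gal was found in 38.6% of 4619 KO cells, 50.4% of 5004 HT cells and 52.9% of 3913 WT cells. Cluster 4 made up more of the class in KO, with 1463 cells, than in HT with 588 or WT with 592. In somatotrope-like cells the level of Gal was 6.88 CPM in KO, 10.52 CPM in HT and 13.6 CPM in WT, each below that of the endothelial-like cells of the same library.

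Genes with a level pattern like that of Gal over the 47 combinations, by Pearson's r of log2(CPM + 10), were Platr21, a long noncoding RNA (r = 0.83), Hapln1, a hyaluronan link protein (r = 0.81), and Myoc, a secreted glycoprotein (r = 0.79). The points share libraries and depth, and 7160 genes were compared, so these values describe likeness only. Cluster 0 was the highest for all 3 genes, except for Hapln1 in KO, where cluster 17 was. Myoc was at 228 CPM in KO, 239 CPM in HT and 208 CPM in WT in cluster 0, so the level of Myoc there was not lower in KO. Hapln1 was at 31.5 CPM in KO, 42.8 CPM in HT and 53.7 CPM in WT.

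**Figure D2:**
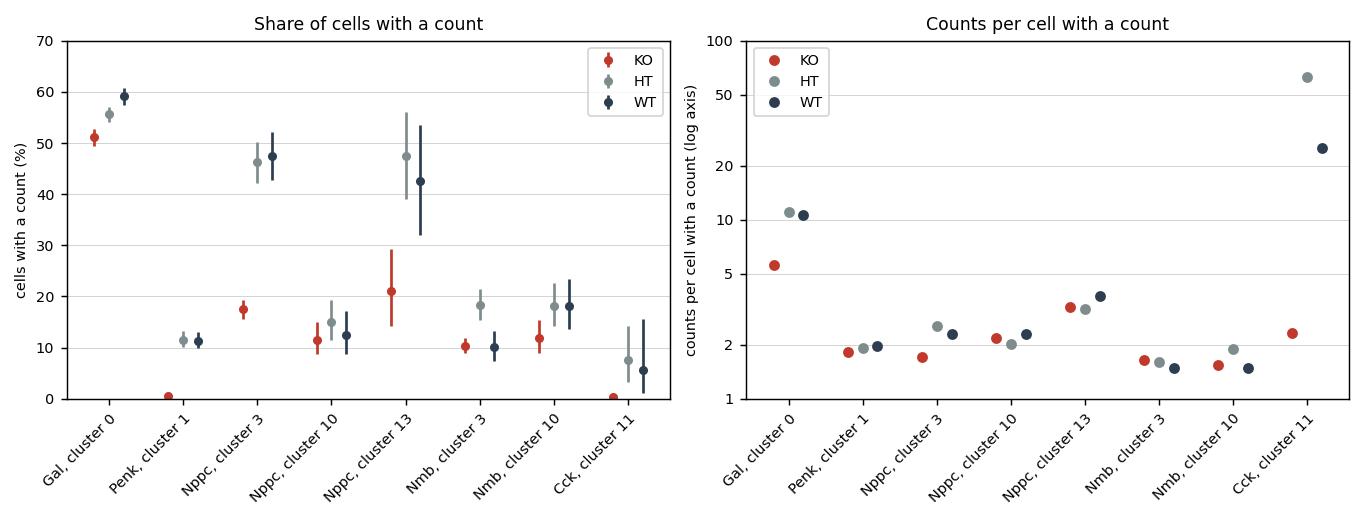
Left, share of cells with a count (%, with 95% Clopper-Pearson intervals), and right, mean counts per cell with a count (log axis), for 8 pairs of gene and cluster in KO, HT and WT. For Gal in cluster 0 the counts per positive cell separated KO (5.57) from WT (10.7), whereas for Penk in cluster 1 and Nppc in cluster 3 the share of cells did. Counts per positive cell cannot fall below 1, so a gene with few counts per cell can differ mainly in share.

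Penk, the enkephalin precursor, was highest in the somatotrope-like cells of HT and WT. Cluster 1 had 1.13 CPM in KO (0.564 to 2.02), 20.6 CPM in HT (18.6 to 22.8) and 26.4 CPM in WT (23.8 to 29.3). Cluster 2, almost without KO cells, had 32.5 CPM in HT (30.7 to 34.4) and 26.5 CPM in WT (24.7 to 28.4). Cluster 5, almost wholly of KO cells, had 0.475 CPM in KO from 15 counts in 9 of 2457 cells. The KO level was thus low in both somatotrope-like clusters that held KO cells in number.

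In cluster 1 a Penk count was found in 6 of 1188 KO cells, 198 of 1715 HT cells and 185 of 1635 WT cells. These shares are 0.505% in KO, 11.5% in HT and 11.3% in WT. Counts per positive cell were 1.83 in KO, 1.92 in HT and 1.98 in WT, so the genotypes differed in how many cells held a count and hardly in counts per such cell. Counts per positive cell cannot fall below 1, and the KO mean rests on 11 counts. The split thus does not show how many cells express Penk. The level was 23.4-fold lower in KO cells than in WT cells (12.9 to 47.3) and 18.3-fold lower than in HT (10.1 to 36.9). Penk was the only member past 2-fold lower in cluster 1 against WT, where 0.231% of 11259 genes were. Mean depth was 8196 counts per cell in KO, 10741 in HT and 8466 in WT. Endothelial-like cells held a Penk count in 0.543% of KO cells, 1.42% of HT cells and 0.483% of WT cells.

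Over the somatotrope-like class as a whole, clusters 1, 2 and 5, Penk was at 0.626 CPM in 3662 KO cells, 28.4 CPM in 3831 HT cells and 26.4 CPM in 3744 WT cells. It was found in 0.410% of KO cells (0.229% to 0.675%), 15.9% of HT cells (14.8% to 17.1%) and 13.1% of WT cells (12.05% to 14.2%). KO was 42.2-fold lower than WT (28.7 to 64.9) and 45.4-fold lower than HT (30.9 to 69.7), while HT over WT was 1.08 (0.996 to 1.16). Different clusters made up the class, cluster 5 in KO and cluster 2 in HT and WT. Among the 17 KO cells of cluster 2 no Penk count was seen. The limit of 3 counts is a share of 17.6%, and the exact upper limit is 19.5%, beside shares of 19.6% in HT and 14.6% in WT.

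A lower level of Penk in KO was also measured in lactotrope-like cells. Cluster 0 had 0.476 CPM in KO, 7.29 CPM in HT and 11.3 CPM in WT, with a count in 9 of 3156 KO cells, 148 of 4416 HT cells and 125 of 3321 WT cells. KO was 23.7-fold lower than WT there (13.9 to 43.7). HT was 1.54-fold lower than WT (1.33 to 1.795). Endothelial-like cells had 1.28 CPM of Penk in KO, 3.28 CPM in HT and 1.34 CPM in WT, from 1 to 4 counts. The KO levels of clusters 0, 1 and 5 are at or below that endothelial level. In KO the endothelial level rests on 3 counts and equals 279% of the whole-library level of Penk. Gh and Prl in those cells stood at 16.6% and 19.1%. Macrophage-like cells of KO had 0 Penk counts, with an exact upper limit of 1.90 CPM. The low KO levels are thus read neither as expression nor as background. In HT and WT the intervals of clusters 1 and 2 lie above the endothelial one. So does that of cluster 0 in WT, whereas in HT the cluster 0 interval (6.56 to 8.07) lies inside the endothelial one (0.893 to 8.39).

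In KO the highest Penk level was that of the pituicyte-like cluster 18, glial cells of the neural lobe, with 10.9 CPM (4.70 to 21.4) from 8 counts in 5 of 107 cells. That cluster held 2 HT and 9 WT cells, too few to compare. Fibroblast-like cluster 15 had 5.85 CPM in KO, 9.87 CPM in HT and 17.4 CPM in WT, from 4, 5 and 5 counts, and the 3 intervals overlapped. Melanotrope-like cluster 7 had 1.43 CPM in HT and 2.94 CPM in WT, and corticotrope-like cluster 6 had 1.04 CPM in HT and 2.38 CPM in WT. A predicted gene on the opposite strand, A830012C17Rik, overlaps Penk, and it had 3 counts in KO, 11 in HT and 5 in WT.

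Closest to Penk in pattern were Klf15, a transcription factor (r = 0.67), Slc39a14, a zinc transporter (r = 0.65), and Ghrhr, the receptor for growth hormone-releasing hormone (r = 0.63). Ghrhr in cluster 1 was at 29.2 CPM in KO, 61.1 CPM in HT and 65.9 CPM in WT. The KO level of Ghrhr was the lowest there, and the receptor was still found in 15.99% of KO cells, 36.0% of HT cells and 33.5% of WT cells.

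**Figure D3:**
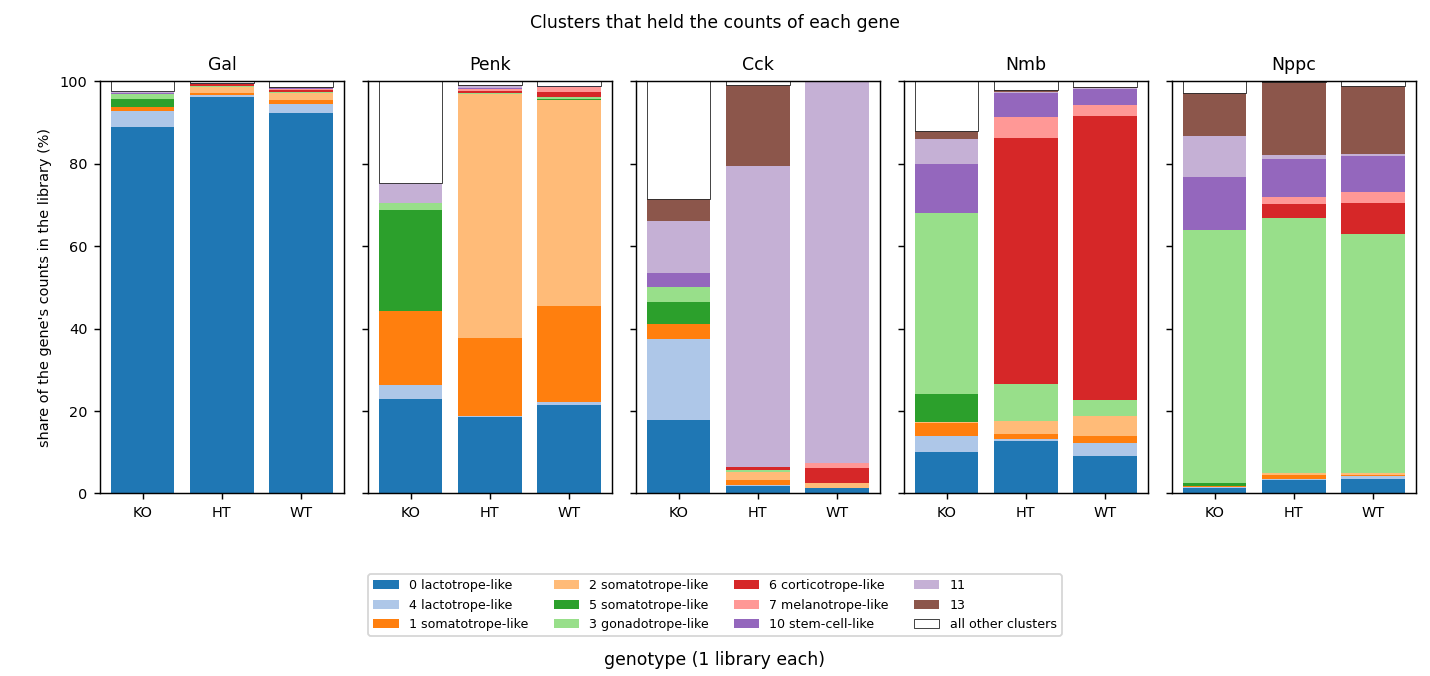
Share of each gene's counts (%, bars stacked to 100) that lay in each cluster, for KO, HT and WT. Nmb in HT and WT lay mostly in corticotrope-like cluster 6, which held no KO cells, and Cck in HT and WT lay mostly in cluster 11.

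Cck, the cholecystokinin precursor, was carried by very few cells. In cluster 11 its level was 1.11 CPM in KO, 619 CPM in HT and 229 CPM in WT. Behind these values were 7 counts in 3 of 871 KO cells, 504 counts in 8 of 107 HT cells and 75 counts in 3 of 53 WT cells. A positive cell thus held on average 2.33 counts in KO, 63 in HT and 25 in WT. The cluster accounted for 12.5% of all Cck counts in KO, 73.1% in HT and 92.6% in WT.

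By level, Cck in cluster 11 was 207-fold lower in KO cells than in WT cells (95.9 to 534), and 2.70-fold higher in HT than in WT (2.12 to 3.49). These intervals treat each count as independent while 3 WT cells hold the whole WT signal. By share of cells, KO was 16.4-fold lower than WT (2.20 to 123), and HT over WT was 1.32 with an interval from 0.317 to 7.73. A difference between HT and WT was thus not detectable in the number of positive cells. Among members with at least 50 counts, Cck was past 2-fold in this cluster, where 1.51% of 10823 genes were lower in KO against WT, and 1.24% of 3879 genes were higher in HT against WT. On fewer counts, Penk in cluster 11 had 9 counts in HT and 0 in WT.

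The cells of cluster 11 differed between libraries in other genes too. Pomc was at 196 CPM in KO, 33462 CPM in HT and 19954 CPM in WT, and Tbx19 at 13.6 CPM in KO, 76.2 CPM in HT and 61.1 CPM in WT. The row named LacZp had 83 counts in KO, 7 in HT and 0 in WT in this cluster. KO supplied 871 of the cells, 6.49% of its library, against 0.833% for HT and 0.472% for WT. The part of this difference in cell makeup in the Cck ratio was not tested.

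Cluster 13 was the other place with Cck, mainly in HT. It had 3 counts in 1 of 124 KO cells, 134 counts in 5 of 139 HT cells and 0 counts in 87 WT cells. For WT the limit of 3 counts is a share of 3.45% and the exact upper limit is 4.15%, above the HT share of 3.60%. HT was at least 21.3-fold higher than WT in level if the WT cluster is set to a floor of 3 counts, and the lower limit of the exact interval was 17.05-fold. The 134 HT counts came from 5 cells, and by share of cells the lower limit of HT over WT was 0.574, so a difference in the number of positive cells was not detectable. In this cluster 0.338% of genes were past 2-fold higher in HT there. In KO, 14 of the 56 Cck counts came from 1 thyrotrope-like cell, and 21 from the lactotrope-like clusters, which gave 0.423 CPM there in KO, 0.234 CPM in HT and 0.0266 CPM in WT. Endothelial-like cells had 0 counts in KO, 4 in HT and 0 in WT. The genes most like Cck were Klk1b24, a kallikrein (r = 0.76), Sbk2, a kinase (r = 0.71), and Kcnab3, a potassium channel subunit (r = 0.67). In cluster 11, Sbk2 was at 27.8 CPM in KO, 93.4 CPM in HT and 119 CPM in WT.

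Nmb, the neuromedin B precursor, was highest in corticotrope-like cluster 6 of both libraries that had such cells. Its level was 130 CPM in HT (123 to 138) and 156 CPM in WT (148 to 165), and HT was 1.20-fold lower than WT (1.11 to 1.30). A count was found in 366 of 1037 HT cells and 312 of 1081 WT cells, that is 35.3% in HT and 28.9% in WT, at mean depths of 9256 and 7376 counts per cell. The share and the level gave opposite orders, so no order of share is read. Endothelial-like cells held a count in 6.76% of HT cells and 2.42% of WT cells. Cluster 6 held 59.8% of the Nmb counts of HT and 69.0% of those of WT. In melanotrope-like cluster 7, the other Pomc cells, the level was 12.5 CPM in HT and 7.36 CPM in WT.

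Among clusters present in all 3 libraries, Nmb was highest in stem-cell-like cells. Stem-cell-like cluster 10 had 31.2 CPM in KO (24.6 to 39.1), 51.2 CPM in HT (42.6 to 61.1) and 48.0 CPM in WT (37.5 to 60.6). KO was 1.54-fold lower than WT there (1.10 to 2.16), with a count in 49 of 415 KO cells, 65 of 358 HT cells and 48 of 264 WT cells. Gonadotrope-like cluster 3 had 13.1 CPM in KO, 18.5 CPM in HT and 13.3 CPM in WT. The ratio of KO over WT in cluster 3 was 0.984 (0.751 to 1.30), while HT was 1.39-fold higher than WT (1.04 to 1.86). Endothelial-like cells had 13.2 CPM of Nmb in KO, 20.5 CPM in HT and 6.69 CPM in WT. That was 276% of the whole-library level in KO and 149% in HT, where Gh and Prl in the same cells stood at 12.1% to 19.1%, so the endothelial-like level is not used as a background for Nmb. Macrophage-like cluster 8 had 6.20 CPM in KO, 3.67 CPM in HT and 1.79 CPM in WT, below clusters 3 and 10 of the same library.

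Over the 13 clusters compared, the log2 ratio of Nmb in KO over WT ran from -0.66 in cluster 4 to 0.48 in cluster 9. In cluster 4 it stood at 1.19 CPM in KO, 1.11 CPM in HT and 7.68 CPM in WT. In cluster 0 it was at 2.21 CPM in KO, 5.26 CPM in HT and 5.48 CPM in WT, with a macrophage-like level of 6.20 CPM in KO, 3.67 CPM in HT and 1.79 CPM in WT beside it. Most of the KO counts of Nmb lay in cluster 3, with 43.8% of them, and in cluster 10, with 11.9%. Sec11a, a signal peptidase subunit, overlaps Nmb on the same strand, so reads from the shared stretch could be split between them. Sec11a stood at 180.3 CPM in KO, 203 CPM in HT and 188 CPM in WT over all cells. In cluster 6 it was at 239 CPM in HT and 197 CPM in WT, an order opposite to that of Nmb.

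Among the genes like Nmb in pattern were Calml4, a calmodulin-like protein (r = 0.76), and Plce1, a phospholipase C (r = 0.74). Calml4 was highest in cluster 10, at 130 CPM in KO, 117 CPM in HT and 96.7 CPM in WT.

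Nppc, the precursor of C-type natriuretic peptide, had its highest level in cluster 13 and lay by count mostly in gonadotrope-like cluster 3. Cluster 3 held 61.2% of the Nppc counts in KO, 61.9% in HT and 57.9% in WT. Its level was 23.3 CPM in KO (21.3 to 25.5), 74.6 CPM in HT (69.3 to 80.2) and 97.6 CPM in WT (89.1 to 107). KO was 4.18-fold lower than WT (3.68 to 4.74) and 3.20-fold lower than HT (2.85 to 3.59), while HT was 1.31-fold lower than WT (1.16 to 1.47). Nppc was the only member past 2-fold lower in cluster 3, where 0.363% of 14058 genes were.

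A count of Nppc was found in 290 of 1662 KO cells of cluster 3, 291 of 630 HT cells and 213 of 449 WT cells. The shares were 17.4% in KO (15.7% to 19.4%), 46.2% in HT (42.2% to 50.2%) and 47.4% in WT (42.7% to 52.2%), so HT and WT overlapped and KO lay below both. Counts per positive cell were 1.72 in KO, 2.55 in HT and 2.31 in WT. Mean depth was 12862 counts per cell in KO, 15808 in HT and 11207 in WT, so KO cells were not shallower than WT cells. Endothelial-like cells held a count in 1 of 552 KO cells, 0 of 281 HT cells (a limit of 1.07% from 3 counts, or 1.30% by the exact interval) and 2 of 207 WT cells. Gonadotrope-like cells were a larger share of the KO library, 12.4% of its cells against 4.91% in HT and 4.001% in WT. The ratio of KO over WT was nearer to 1 for Nppc over all cells than within this cluster.

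Cluster 13 had 96.6 CPM in KO (77.1 to 119), 177 CPM in HT (154 to 203) and 246 CPM in WT (207 to 291). KO was 2.55-fold lower than WT (1.93 to 3.38), where 0.897% of 4680 genes were past 2-fold lower. A count was found in 26 of 124 KO cells, 66 of 139 HT cells and 37 of 87 WT cells. Stem-cell-like cluster 10, by contrast in value, had 43.1 CPM in KO (35.3 to 52.2), 45.4 CPM in HT (37.3 to 54.7) and 51.4 CPM in WT (40.5 to 64.3). The intervals of the 3 libraries overlapped there, with a count in 48 of 415 KO cells, 54 of 358 HT cells and 33 of 264 WT cells, and KO over WT was 0.839 (0.618 to 1.14).

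The remaining clusters had little Nppc. Cluster 11 had 12.9 CPM in KO, 17.2 CPM in HT and 9.17 CPM in WT, and pituicyte-like cluster 18 had 17.7 CPM in KO. Corticotrope-like cluster 6 had 4.06 CPM in HT and 8.03 CPM in WT. Endothelial-like cells had 0.426 CPM in KO, 0 in HT and 4.02 CPM in WT, from 0 to 3 counts, so clusters 3, 10 and 13 stood above that level in all 3 libraries. Most like Nppc in pattern were Gstm7, a glutathione transferase (r = 0.89), Frmpd1, a scaffold protein (r = 0.87), and Kcng4, a potassium channel subunit (r = 0.83). Gstm7 in cluster 3 was at 49.5 CPM in KO, 86.6 CPM in HT and 125 CPM in WT. Kcng4 in cluster 13 was at 65.9 CPM in KO, 47.3 CPM in HT and 70.9 CPM in WT, without the order seen for Nppc.

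**Figure D4:**
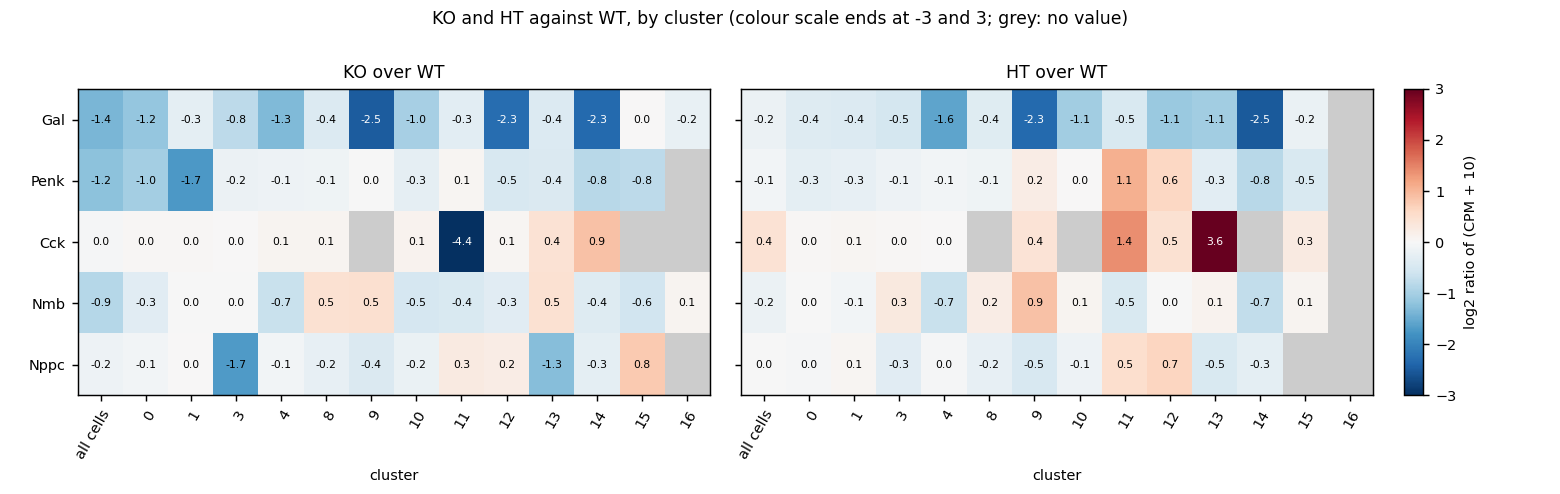
Log2 ratio of (CPM + 10) for KO over WT (left) and HT over WT (right), over all cells and in each cluster with at least 50 cells in both libraries; negative values (blue) are lower in KO or HT, and grey marks no value. The lowest KO ratios outside Gal were those of Cck in cluster 11 (-4.43), Penk in cluster 1 (-1.71) and Nppc in clusters 3 (-1.69) and 13 (-1.27).

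The ratios over whole libraries mix the level within clusters with the numbers of cells, and both parts were set out in counts per cell. For Gal, KO over WT was 0.372 over all cells, 0.251 over the 16 clusters with at least 20 cells in both libraries, and 0.447 when those clusters were weighted by their WT cell shares in both. For Penk the same values were 0.0326, 0.0391 and 0.0457, all far below 1. The last 2 left out cluster 2, which had 17 KO cells and held 783 of the 1567 Penk counts of WT. Cluster 5, with 2457 KO and 28 WT cells, had little weight in the last. For Nmb the same values were 0.296, 0.815 and 0.643, the first including corticotrope-like cells and the others not. For Nppc they were 0.804, 0.583 and 0.376, so the ratio was lowest at equal cell shares. For Cck they were 0.578, 0.405 and 0.410, and these rest on 56 counts in KO and 81 in WT. Over the same 16 clusters, weighting by WT cell shares gave a higher ratio for Gal and Penk, and a lower one for Nppc and Nmb.

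The 5 patterns were not alike. Over the 47 combinations, Pearson's r of log2(CPM + 10) between pairs of the 5 genes ran from -0.22, for Nmb with Penk and for Gal with Nppc, to 0.33 for Nmb with Nppc. These points share libraries and depth.

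Apart from the natriuretic peptide receptors, receptors of the 5 peptides were rarely seen. All 13 receptor genes on the list were in the table and 7 had at least 50 counts in KO and WT together. Of the 7, 1 was lower and 6 higher in KO than in WT, and their median log2 ratio was 0.07 against 0.02 over all genes. None was past 2-fold once 10 CPM was added, a step that receptors at these levels could hardly pass. Without it, KO was higher than WT over all cells by 3.29-fold for Npr3 (2.86 to 3.804), 2.83-fold for Cckbr (1.83 to 4.52) and 2.44-fold for Npr1 (1.89 to 3.17). Galr1 had 18 counts in KO, 5 in HT and 2 in WT, Oprd1 had 9 in all, Cckar 6, Nmbr 14 and Grpr 1, so no level by cluster was readable for these receptors of galanin, enkephalin, cholecystokinin and bombesin-like peptides.

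The natriuretic peptide receptors were the most readable. Npr2, the guanylyl cyclase that binds C-type natriuretic peptide, was at 13.4 CPM in KO, 12.8 CPM in HT and 12.2 CPM in WT over all cells. Endothelial-like cluster 9 had 37.1 CPM of Npr2 in KO, 20.5 CPM in HT and 14.7 CPM in WT. Cluster 0 had 20.8 CPM in KO, 19.3 CPM in HT and 18.9 CPM in WT. Cluster 9 was the highest in KO only. Fibroblast-like cluster 15 was the highest in HT, at 35.5 CPM from 18 counts, and cluster 12 in WT, at 23.2 CPM from 12 counts. Npr3, the clearance receptor without a cyclase, was at 7.39 CPM in KO, 2.69 CPM in HT and 2.25 CPM in WT over all cells. Within gonadotrope-like cluster 3, where Nppc was low in KO, Npr3 stood at 35.0 CPM in KO, 30.4 CPM in HT and 32.2 CPM in WT, in 27.2% of KO cells, 28.3% of HT cells and 24.5% of WT cells. Npr1, the receptor of atrial natriuretic peptide, was highest in endothelial-like cells, at 61.0 CPM in KO, 68.8 CPM in HT and 40.2 CPM in WT. Pituicyte-like cells of KO had 43.5 CPM of Npr1, from 32 counts in 25 of 107 cells. Endothelial-like cells numbered 552 in KO and 207 in WT, and pituicyte-like cells 107 in KO and 9 in WT. The part of these cell numbers in the Npr1 ratio over all cells was not tested.

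Among the other receptors, Galr2 reached 20.4 CPM in pituicyte-like cells of KO, from 15 counts in 10 of 107 cells. Galr3 was seen mainly in cluster 0, the Gal-rich cells, at 3.33 CPM in KO, 3.37 CPM in HT and 3.24 CPM in WT, in 2.31% of KO cells, 2.74% of HT cells and 2.29% of WT cells. Endothelial-like cells had 1 Galr3 count in KO, 0 in HT and 0 in WT. The level of Galr3 in cluster 0 was thus close in all 3 libraries although that of Gal was not. Oprk1, the kappa opioid receptor, was at 3.57 CPM in KO, 1.30 CPM in HT and 2.24 CPM in WT in cluster 0. Cckbr, a cholecystokinin receptor, was at 2.53 CPM in KO, 1.88 CPM in HT and 1.17 CPM in WT in cluster 4.

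The enzymes that mature peptide precursors were measured in all clusters that held the 5 genes. All 12 genes of that list were tested, none was past 2-fold between KO and WT over all cells, 5 were lower and 7 higher in KO, and their median log2 ratio was 0.06. In cluster 0, Cpe, the carboxypeptidase that trims basic residues, was at 638 CPM in KO, 700 CPM in HT and 658 CPM in WT. Pam, the amidating enzyme that galanin requires, was at 507 CPM in KO, 536 CPM in HT and 506 CPM in WT in the same cells. The levels of both enzymes in cluster 0 lay within a narrow range where Gal did not. In cluster 3 the convertase Pcsk1 was at 369 CPM in KO, 416 CPM in HT and 346 CPM in WT, and in cluster 1 it was at 67.4 CPM in KO, 40.4 CPM in HT and 51.4 CPM in WT. Pcsk2, the other neuroendocrine convertase, was at 12.5 CPM in KO, 26.9 CPM in HT and 20.5 CPM in WT in cluster 0. Qpct, which forms amino-terminal pyroglutamate, had the highest log2 ratio of the list, 0.64, and was at 170 CPM in KO, 144 CPM in HT and 128 CPM in WT in cluster 0. Pcsk2 had the lowest, -0.55 over all cells, and its main site in HT was melanotrope-like cluster 7, at 1227 CPM, a cluster without KO cells. The other 10 genes, among them the convertase partner Scg5, Furin and the tyrosylprotein sulfotransferase Tpst2, which acts on the class of residue that is sulfated in cholecystokinin, had log2 ratios from -0.15 to 0.46.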

How the data were processed

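Libraries of 1 sample for each genotype were used. The authors deposited raw counts of 55403 gene rows, each added up over the cells of 1 genotype in 1 cluster (61 columns), and rows with the same symbol were added, which moved 110 rows. Per the submitters' processing notes, Cell Ranger 5, Seurat 3.1 and DESeq2 were used, with mm10 and GRCm38 named as builds; the step of each is not given in the sources used here, nor is the collapsing of reads to molecules. The authors' scaled counts, a signal equal to the deposited raw counts times 1 factor per column, were an alternative only. The deposited tables of the unit other gave the number of cells with a count and each barcode's cluster. No column of per-sample values was left unused.

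CPM, ratios and exact intervals were computed with Python 3.11.15, numpy 2.4.6, pandas 2.3.3 and scipy 1.17.1, and the scripts were tested on simulated data. No test was run, because each genotype has 1 library. Genes with at least 50 counts in both libraries together were compared, in clusters of at least 50 cells, and ratios of the 5 genes were given at any count. A value of 0 was given the limit of 3 counts. Counts per single cell were not analysed here, so cells were not thinned to equal depth and doublets were not treated. The members, gene lists and markers were chosen with earlier results of these data known. The text names the 5 genes, the 3 clusters of highest level per library, the 3 genes most like each in pattern among those with at least 50 CPM somewhere, and list genes with at least 20 CPM somewhere; Galr1, Galr3, Oprd1, Oprk1, Cckar, Cckbr, Nmbr and Grpr and other clusters were named after their values were seen. For Nmb, 1 gene that the rule selects is not reported here. Log2 ratios carry a pseudocount of 10 CPM and understate differences of low genes. Alternatives were a pseudocount of 1 CPM, totals without hormone and mitochondrial genes, the scaled counts, other cluster weights, counts per cell and shares of cells.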

Additional observations from a re-analysis of the deposited data

How the results depend on the processing

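No paired analysis was possible because there is only 1 library per genotype, and no replicate could be left out. All 5 log2 ratios of KO over WT over all cells stayed negative under every alternative run. With a pseudocount of 1 CPM they were -1.47 for Gal, -3.42 for Penk, -0.31 for Cck, -1.62 for Nmb and -0.32 for Nppc. With totals that left out hormone and mitochondrial genes they were -1.48 for Gal, -1.64 for Penk, -0.075 for Cck, -1.09 for Nmb and -0.23 for Nppc. With the authors' scaled counts they were -1.23 for Gal, -0.80 for Penk, -0.69 for Cck, -0.50 for Nmb and -0.53 for Nppc. A further setting left out clusters of under 20 KO or WT cells, among them cluster 2, which held the most Penk counts in WT. The log2 ratios were then -2.06 for Gal, -1.06 for Penk, -0.10 for Cck, -0.18 for Nmb and -0.45 for Nppc. At WT shares of the clusters kept they were -1.17 for Gal, -1.05 for Penk, -0.10 for Cck, -0.24 for Nmb and -0.62 for Nppc. By mean counts per cell they were -1.32 for Gal and -1.22 for Penk, and the other 3 stayed within their intervals. Penk thus missed 2-fold with the scaled counts, and Nmb passed it with a pseudocount of 1 CPM and without the hormone genes. The cause was not tested.

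With a pseudocount of 1 CPM, 163 genes were lower and 293 higher in KO than in WT by 2-fold or more over all cells, against 25 and 36 with 10 CPM, so these counts depend on the pseudocount. Of 140 values for 28 results within clusters, 102 stayed within the counting interval, 37 lay outside it with the same sign, and 1 changed sign: Gal in cluster 10, at 0.083 by share of cells with a count. The 102 include 28 values from the authors' scaled counts. Those could not differ, because 1 factor per column leaves CPM within a cluster unchanged. Depth limits Cck, Penk in KO and most receptors, where under 100 counts stand behind a library.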

Other observations

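Other peptide precursors of the pituitary were counted from a list of 35 genes, all in the table. In all, 15 had at least 50 counts in KO and WT together, and 7 were lower and 8 higher in KO than in WT over all cells, with a median log2 ratio of 0.03. None was past 2-fold once 10 CPM was added, but all 15 stood below 10 CPM in KO and WT, so this count says little. Without the added 10 CPM, KO over WT was 8.87 for Avp (6.69 to 11.99), 5.23 for Oxt (3.55 to 7.97), 4.70 for Nmu (4.06 to 5.46) and 3.28 for Adm (2.44 to 4.46). It was 0.166 for Tac1 (0.105 to 0.255) and 0.287 for Pnoc (0.219 to 0.373). Avp, Oxt and Adm were highest in pituicyte-like cluster 18, which held 107 KO cells and 9 WT cells. In KO, most of the 584 Avp counts and of the 195 Oxt counts lay outside that cluster. In the ratios of Avp, Oxt and Adm over all cells, the parts of cell number, level per cell and other clusters were not tested. Nmu, the neuromedin U precursor, lay in gonadotrope-like cluster 3 at 52.3 CPM in KO, 32.3 CPM in HT and 32.0 CPM in WT, in 36.3% of KO cells, 28.7% of HT cells and 21.8% of WT cells. Its KO level there was the highest of the 3, whereas that of Nppc in the same cells was the lowest. Edn3, an endothelin, lay in fibroblast-like cluster 15 at 299.9 CPM in KO, 288 CPM in HT and 195 CPM in WT. Apln, the apelin precursor, was at 71.9 CPM in KO, 114 CPM in HT and 115 CPM in WT in stem-cell-like cluster 10, where the 3 intervals of Nppc overlapped.

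In pituicyte-like cells of KO, Avp and Oxt, hormones made in hypothalamic neurons whose axons end in the neural lobe, stood at 190.5 and 107 CPM. In the same cells Adm, the vasodilator adrenomedullin, was at 173 CPM. The HT and WT libraries had 2 and 9 cells in that cluster, and no comparison was made within it. 

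Vip, vasoactive intestinal peptide, was at 10.8 CPM in KO, 21.02 CPM in HT and 17.2 CPM in WT in cluster 0, and was found in 4.53% of KO cells, 8.97% of HT cells and 6.08% of WT cells. In cluster 11, Grp, a bombesin-like peptide related to neuromedin B, was at 16.9 CPM in KO, 55.3 CPM in HT and 30.6 CPM in WT. Cartpt in the same cluster was at 13.3 CPM in KO, 33.2 CPM in HT and 24.4 CPM in WT, and Agt, angiotensinogen, at 11.5 CPM in KO, 12.3 CPM in HT and 21.4 CPM in WT. The KO value was the lowest of the 3 for each of these genes, on 7 to 10 counts in WT. For Grp and Cartpt the WT interval included the KO level, and the 3 intervals of Agt overlapped. Calca, the calcitonin gene, was at 24.7 CPM in HT and 13.7 CPM in WT in corticotrope-like cluster 6. Tac1, the substance P precursor, was at 17.6 CPM in KO, 35.5 CPM in HT and 13.9 CPM in WT in fibroblast-like cluster 15, from 12, 18 and 4 counts, and the 3 intervals overlapped. Over all cells Tac1 had 26 counts in KO, 64 in HT and 126 in WT, so nearly all WT counts lay in other clusters.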
